A study of Arabidopsis thaliana with 12 samples.

Results

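Small nucleolar RNAs (snoRNAs) are short RNAs that work in the nucleolus, where they pair with ribosomal RNA precursors. They guide the chemical modification or cleavage of these precursors. Box C/D snoRNAs guide 2′-O-methylation with the methyltransferase fibrillarin, box H/ACA snoRNAs guide pseudouridylation with dyskerin, and U3 is needed for cutting the rRNA precursor. In plants many snoRNA genes lie in small clusters that are transcribed as one precursor and then processed, and some lie in introns of protein-coding genes. A few, U3 among them, have promoters with an upstream sequence element, as spliceosomal RNA genes do. Plant U3 is made by RNA polymerase III.

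The nuclear snoRNA genes of *Arabidopsis thaliana* were taken as every row of the deposited gene table on chromosomes 1 to 5 whose description names a snoRNA and no protein, at 1 FPKM (fragments per kilobase, scaled to the reads mapped) or more in at least 3 of the 12 libraries. This gave 66 of the 71 snoRNA rows in the table, among 20715 genes tested and 33610 counted. Unopened flower buds were collected from *bzip17* plants kept at 38 °C for 6 h, *bzip17* plants kept at 22 °C, wild-type (WT) plants kept at 38 °C for 6 h and WT plants kept at 22 °C, with 3 libraries a group, each from the pooled buds of 8 plants grown in a 16 h day and 8 h night. Both genotypes are in the Columbia-0 background; *bzip17* is 1 T-DNA insertion line (SALK_104326) in the gene of the membrane-bound transcription factor bZIP17. Since a library is a pool of plants, p-values measure the spread between such pools. The comparisons ask how the snoRNA genes responded to heat in each genotype and whether the mutant differed from WT.

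The libraries held 38.6 M to 71.8 M read counts, of which the snoRNA genes took 1030 to 24378. *bZIP17* itself (AT2G40950) stood at 10.3, 8.20 and 9.37 CPM (read counts relative to library size, scaled by the trimmed mean of M values, TMM) in *bzip17* buds at 38 °C, against 45.1, 51.0 and 49.2 CPM in WT buds at 38 °C. At 22 °C it stood at 4.03, 5.73 and 3.49 CPM in *bzip17* buds and 36.8, 31.6 and 45.1 CPM in WT buds. The groups did not overlap, and the log2 difference was -2.38 (adjusted p = 0.000678) at 38 °C and -3.10 (adjusted p = 0.00011) at 22 °C. The 5 floral organ identity genes looked at were between 7.87 and 251.5 FPKM in every library, and the seed storage genes *CRU3*, *OLEO1* and *SESA2* stayed at or under 0.458 FPKM. The heat shock genes *HSP17.6II* and *HSFA2* were higher at 38 °C than at 22 °C, with log2 changes of 10.37 and 6.33 in *bzip17* buds and 9.13 and 5.64 in WT buds. Reads from ribosomal RNA loci made up 1.43% to 64.8% of the counts, and 4 libraries were over 10%: *bzip17* 22 °C replicate 1, WT 38 °C replicate 1, and WT 22 °C replicates 2 and 3. WT 22 °C replicate 3, with 64.8%, stood apart from all others and had 20 of the 66 snoRNA genes at 0 counts.

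Most of the snoRNA genes had higher read counts in buds at 38 °C than at 22 °C, in both genotypes. The test was edgeR's quasi-likelihood test, with a Benjamini-Hochberg adjusted p under 0.05 and a change of more than 2-fold as the limits. In *bzip17* buds 31 of the 66 passed as higher, against 6.08% of all genes tested, and 1 as lower, against 6.44%. In WT buds 35 of the 66 passed as higher, against 6.4% of all genes, and 1 as lower, against 6.43%. The median log2 change, 38 °C over 22 °C, was 1.98 in *bzip17* buds, where the median of all genes was -0.05, and 1.95 in WT buds, where it was 0.02. The log2 change was above 0 for 56 of the 66 genes in *bzip17* buds and for 62 in WT buds. The calls above are from a fit without pairs. With the replicate number as a block among the *bzip17* libraries, 22 were called higher there. Because whole buds were sequenced, more RNA per cell and a larger share of cells that carry it cannot be told apart.

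The FPKM limit let 18 of the 66 genes in without 1 FPKM in 3 of the 6 libraries at 22 °C, 6 of them with no such library at 22 °C at all, so they entered partly or wholly through the libraries at 38 °C, which favours a rise. The other 48 reached the limit at 22 °C alone, a split chosen after seeing the data. Of these 48, 23 were called higher in *bzip17* buds, against 4.77% of all tested genes that reached it at 22 °C, and 24 in WT buds, against 4.94%. Their median log2 change was 1.602 in *bzip17* buds and 1.682 in WT buds, where all such genes had medians of -0.08 in *bzip17* buds and -0.02 in WT buds.

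Library by library, the 3 libraries at 38 °C lay above all 3 at 22 °C for 50 of the 66 genes in *bzip17* buds, against 22.1% of all genes, and below them for 1, against 21%. In WT buds they lay above for 52, against 22.8%, and below for 2, against 21.9%. Of the genes called higher, 29 were called in both genotypes, which is 93.5% of those of *bzip17* buds and 82.9% of those of WT buds. The genes called only in WT buds were AT1G03743, AT1G74453, AT1G75163, AT2G35384, AT4G03295 and AT4G39361, and those called only in *bzip17* buds were AT1G20015 and AT3G47342. SNOR108 was the 1 gene called lower, in both genotypes.

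**Figure D1:**
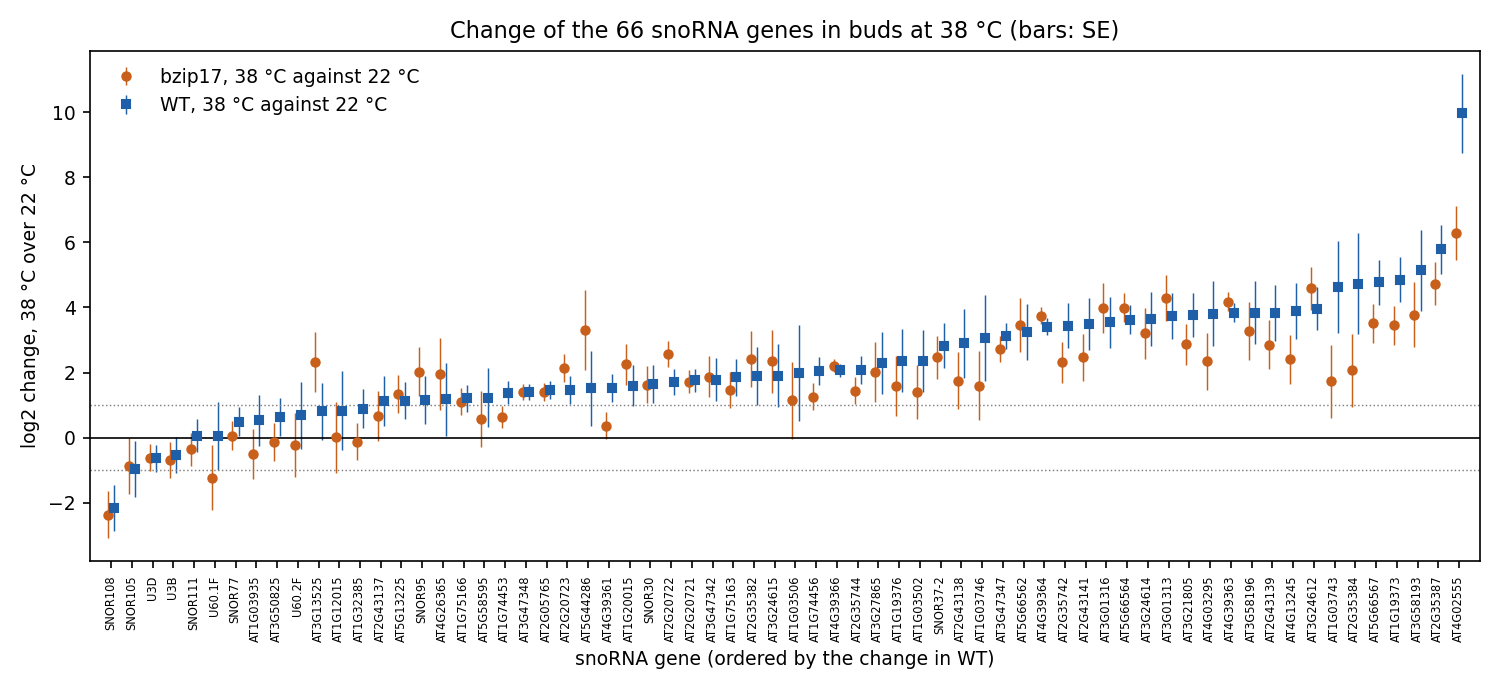
log2 change at 38 °C over 22 °C for each of the 66 snoRNA genes, with its standard error, in *bzip17* buds (circles) and WT buds (squares), ordered by the change in WT; dotted lines mark 2-fold. In WT buds 62 genes lie above 0 and SNOR108, SNOR105, U3D and U3B lie below it; the fitted change of AT4G02555 in WT, at the far right, is set against a group with 0 counts and is not a bound.

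Summed over the 66 genes, the level was 294.7, 243 and 248.3 CPM in *bzip17* buds at 38 °C, against 91.98, 80.61 and 41.07 CPM in *bzip17* buds at 22 °C. In WT buds the sum was 248.7, 224.9 and 266.6 CPM at 38 °C, against 72.46, 74.73 and 66.88 CPM at 22 °C. The groups at 38 °C and at 22 °C did not overlap in either genotype, and WT 22 °C replicate 3 lay close to its partners on this scale. The share of counts outside rRNA loci that fell on mitochondrion-encoded genes moved in the same direction: 0.870%, 1.13% and 0.548% in *bzip17* buds at 38 °C and 0.101%, 0.0603% and 0.0128% in *bzip17* buds at 22 °C. In WT buds this share was 0.981%, 1.10% and 0.627% at 38 °C and 0.0523%, 0.129% and 0.444% at 22 °C. The mature pollen genes *CPK34* and *SPIK*, at 0.312 to 6.54 FPKM over all libraries, were called lower in WT buds at 38 °C (log2 changes -2.73 and -2.04) and had log2 changes of -0.91 and 0.17, not called, in *bzip17* buds. The part of the mitochondrial RNA and of these pollen genes' source in the snoRNA result was not tested.

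**Figure D2:**
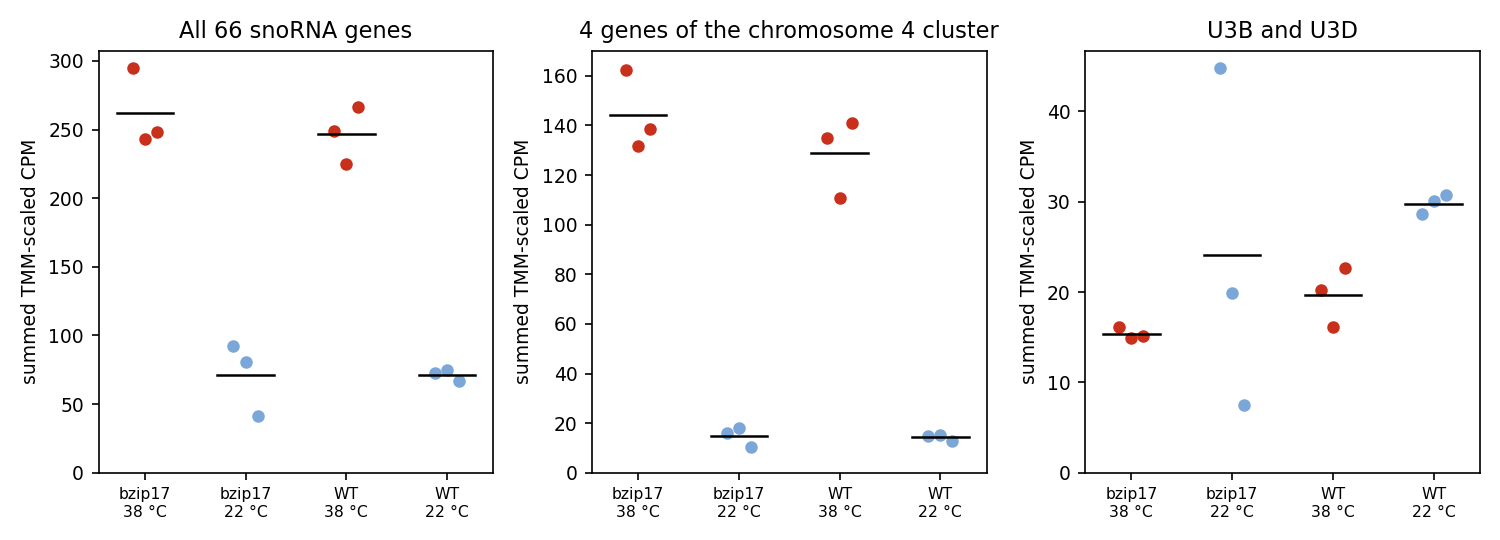
Summed TMM-scaled CPM per library (points) and group mean (line), for all 66 snoRNA genes, for the 4 genes of the chromosome 4 cluster and for U3B with U3D; each axis starts at 0. All libraries at 38 °C lie above those at 22 °C in the panels of all genes and of the cluster, and the U3 panel shows no such rise, with *bzip17* 22 °C libraries spread between 7.46 and 44.8 CPM.

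At 38 °C the largest share of these counts came from 4 adjacent genes on chromosome 4, AT4G39361, AT4G39363, AT4G39364 and AT4G39366, which lie within chr4:18304891-18305704 on the plus strand (TAIR10) with 245, 39 and 48 bases between them. They are printed here because 3 of them gave the smallest adjusted p-values of the snoRNA genes in both genotypes and because their sequences are alike. Capitals mark the C box letters TGATGA near the 5′ end and the D box letters CTGA near the 3′ end; AT4G39363 does not have these exact C box letters in its first 20 bases and carries no capitals.
AT4G39361: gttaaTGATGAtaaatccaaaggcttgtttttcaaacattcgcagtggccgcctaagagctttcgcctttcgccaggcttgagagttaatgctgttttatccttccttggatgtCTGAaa
AT4G39363: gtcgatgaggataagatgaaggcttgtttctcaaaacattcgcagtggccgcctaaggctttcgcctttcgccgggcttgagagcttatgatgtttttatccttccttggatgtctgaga
AT4G39364: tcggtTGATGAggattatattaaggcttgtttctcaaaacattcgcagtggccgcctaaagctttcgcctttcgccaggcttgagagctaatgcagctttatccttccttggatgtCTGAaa
AT4G39366: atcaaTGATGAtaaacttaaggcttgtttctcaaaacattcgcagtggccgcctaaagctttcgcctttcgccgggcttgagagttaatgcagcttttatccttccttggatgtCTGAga
Any pair of them aligned with 90.7% to 94.1% identity, so reads could be shared between them and the split of counts among the 4 is uncertain.

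AT4G39363, the snoRNA gene with the highest level per length, had 76.3, 52.8 and 61.3 CPM in *bzip17* buds at 38 °C, against 3.98, 4.68 and 1.98 CPM in *bzip17* buds at 22 °C. In WT buds it had 62.4, 49.8 and 68.6 CPM at 38 °C, against 4.32, 4.04 and 4.35 CPM at 22 °C. Every library at 38 °C was more than 10 times the highest at 22 °C. The log2 change was 4.17 (SE 0.292, adjusted p = 8.33e-06) in *bzip17* buds and 3.83 (SE 0.289, adjusted p = 1.94e-05) in WT buds, both by edgeR. AT4G39364 changed by 3.75 (adjusted p = 8.33e-06) in *bzip17* buds and 3.40 (adjusted p = 1.98e-05) in WT buds on the log2 scale. AT4G39366 changed by 2.21 (adjusted p = 2.32e-05) in *bzip17* buds and 2.06 (adjusted p = 5.65e-05) in WT buds. AT4G39361, first in the cluster and far lower, was at 0.37 (SE 0.422, adjusted p = 0.558) in *bzip17* buds, where it was not called, and at 1.53 (SE 0.439, adjusted p = 0.0245) in WT buds. Together the 4 genes took 54.2% to 55.8% of the summed snoRNA level in *bzip17* buds at 38 °C and 17.3% to 25% in *bzip17* buds at 22 °C. In WT buds they took 49.3% to 54.2% at 38 °C and 19.4% to 20.3% at 22 °C. Without these 4 genes and U3, the sum was still 94.67 to 116.1 CPM in *bzip17* buds at 38 °C, against 23.33 to 42.78 CPM in *bzip17* buds at 22 °C. In WT buds it was 93.63 to 102.9 CPM at 38 °C, against 23.18 to 29.54 CPM at 22 °C.

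On the FPKM scale, which allows for gene length, AT4G39363 averaged 583 ± 111 in *bzip17* buds at 38 °C and 29.1 ± 10.7 in *bzip17* buds at 22 °C, and 535 ± 95.3 in WT buds at 38 °C and 28.7 ± 13.5 in WT buds at 22 °C (SD, n = 3 each). FPKM carries no TMM scaling, so a library rich in rRNA reads, WT 22 °C replicate 3 above all, can read low on it. The CPM values of AT4G39363 in WT buds at 22 °C were close to each other, while its FPKM varied. The 8 snoRNA genes with the highest mean FPKM were AT4G39363, AT4G39364, AT4G39366, AT3G47347, AT3G47348, AT2G05765, AT1G75166 and AT2G35744, with means over the 12 libraries from 293.8 down to 41.7 FPKM. All but AT1G75166 were called higher in both genotypes. AT1G75166 had a log2 change of 1.10 (adjusted p = 0.0688) in *bzip17* buds and 1.21 (adjusted p = 0.0507) in WT buds. AT2G05765 has a near-identical copy, AT2G17295, and AT2G35744 has one in AT2G35742. The order of levels differed with temperature. In WT buds at 22 °C the highest mean was that of U3D, 43.8 ± 23.8 FPKM, which did not differ beyond its spread from the next, AT3G47348. In *bzip17* buds at 22 °C AT3G47348 and AT4G39366 had like values, 51.2 ± 15.9 and 51.1 ± 10.6 FPKM. The median over the 66 genes was 12.2 FPKM in *bzip17* buds at 38 °C and 2.66 FPKM in *bzip17* buds at 22 °C, and 12.5 FPKM in WT buds at 38 °C and 1.68 FPKM in WT buds at 22 °C. Because of the rRNA-rich WT library, the lower WT value at 22 °C is not read as a difference between genotypes.

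The largest changes were partly set by the choice of members. AT4G02555, AT2G35387 and AT3G58193 reached 1 FPKM in all 6 libraries at 38 °C and in 0 at 22 °C, so they entered through the temperature at which they were high. The 5 genes printed here are shown because their changes were among the largest, with the boxes in capitals where both were found.
AT4G02555: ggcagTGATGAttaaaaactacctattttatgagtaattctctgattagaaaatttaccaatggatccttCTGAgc
AT2G35387: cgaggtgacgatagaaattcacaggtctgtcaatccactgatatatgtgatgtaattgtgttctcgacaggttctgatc
AT5G66564: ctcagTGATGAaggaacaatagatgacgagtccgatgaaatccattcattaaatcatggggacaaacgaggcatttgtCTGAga
AT1G19373: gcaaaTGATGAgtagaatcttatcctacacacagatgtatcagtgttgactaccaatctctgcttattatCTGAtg
AT3G24612: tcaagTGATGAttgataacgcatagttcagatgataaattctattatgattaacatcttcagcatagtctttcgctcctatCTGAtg
AT4G02555 (chr4:1122603-1122678, plus strand) had 312, 182 and 107 counts in *bzip17* buds at 38 °C, against 2, 3 and 0 in *bzip17* buds at 22 °C, a log2 change of 6.28 (SE 0.830, adjusted p = 0.000613). In WT buds it had 115, 93 and 149 counts at 38 °C and 0 in all 3 libraries at 22 °C, which is at least 22.7-fold higher when the empty libraries are set to 3 counts each. AT2G35387 (chr2:14894718-14894796, minus strand), in which the box letters were not found together, had 156, 107 and 80 counts in *bzip17* buds at 38 °C, against 3, 4 and 2 in *bzip17* buds at 22 °C. In WT buds AT2G35387 had 79, 53 and 91 counts at 38 °C, against 1, 2 and 0 at 22 °C. The log2 change of AT2G35387 was 4.73 (SE 0.656, adjusted p = 0.000426) in *bzip17* buds and 5.78 (SE 0.753, adjusted p = 0.000383) in WT buds.

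AT5G66564 (chr5:26567521-26567604, plus strand) was at 4.93, 3.28 and 2.94 CPM in *bzip17* buds at 38 °C, against 0.269, 0.290 and 0.144 CPM in *bzip17* buds at 22 °C. In WT buds it was at 2.96, 2.94 and 3.07 CPM at 38 °C, against 0.267, 0.284 and 0.130 CPM at 22 °C. Its log2 change was 3.995 (SE 0.448, adjusted p = 0.000118) in *bzip17* buds and 3.62 (SE 0.449, adjusted p = 0.000287) in WT buds, and its neighbour AT5G66562 is 96.4% identical to it over 84 bases. AT3G50825 is another near-identical copy of AT5G66564. AT1G19373 (chr1:6697178-6697253, plus strand) changed by 3.45 (adjusted p = 0.00166) in *bzip17* buds and 4.84 (adjusted p = 0.000635) in WT buds. AT3G24612 (chr3:8979067-8979153, minus strand) changed by 4.59 (adjusted p = 0.000518) in *bzip17* buds and 3.96 (adjusted p = 0.00153) in WT buds. AT3G01313 (chr3:104687-104769, minus strand) had changes of 4.28 (adjusted p = 0.00122) in *bzip17* buds and 3.72 (adjusted p = 0.00325) in WT buds. AT3G47347 (chr3:17445810-17445886, plus strand) changed by 2.71 (adjusted p = 0.00062) in *bzip17* buds and 3.12 (adjusted p = 0.000423) in WT buds. AT3G58193, with 35, 37 and 17 counts in *bzip17* buds at 38 °C and 0, 1 and 4 in *bzip17* buds at 22 °C, had 14, 12 and 31 counts in WT buds at 38 °C and 0, 1 and 0 in WT buds at 22 °C. Its log2 change was 3.78 (SE 0.992, adjusted p = 0.0153) in *bzip17* buds and 5.14 (SE 1.25, adjusted p = 0.0115) in WT buds. Leaving out each library of a comparison in turn kept the call in all 102 such fits, over 17 increases counted by gene and genotype and chosen for their p-value or size. None of the 4 chromosome 4 genes, the genes of highest FPKM and the genes of largest change described here overlaps another gene of the table. RefSeq places AT3G24612 in an exon of the long non-coding RNA gene AT3G04775 and AT3G58193 in an intron of AT3G09105, another such gene, both on the same strand.

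**Figure D3:**
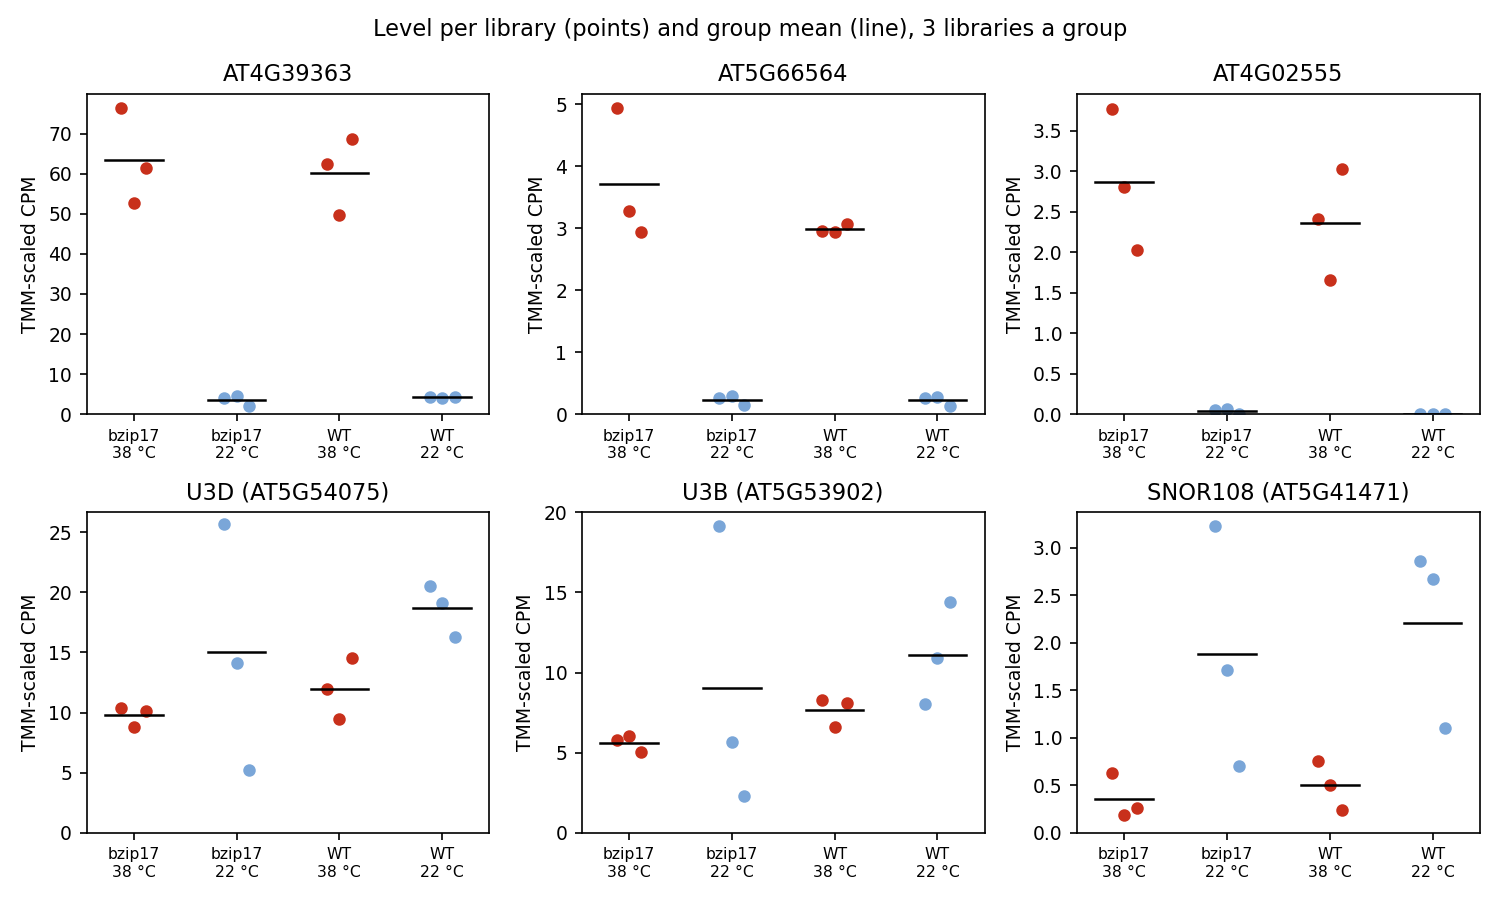
TMM-scaled CPM in each library (points) with the group mean (line) for 3 snoRNA genes that were higher at 38 °C (top) and for U3D, U3B and SNOR108 (bottom); each axis starts at 0. The 38 °C and 22 °C libraries do not overlap in the top row, while U3D and U3B overlap in *bzip17* buds and SNOR108 is lower at 38 °C in both genotypes.

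U3B, U3D, SNOR105 and SNOR108 were the 4 members with a log2 change under 0 in WT buds, and they were under 0 in *bzip17* buds too. U3D (AT5G54075, chr5:21945349-21945709, minus strand) had 10.4, 8.81 and 10.1 CPM in *bzip17* buds at 38 °C, against 25.7, 14.2 and 5.18 CPM in *bzip17* buds at 22 °C. In WT buds U3D had 11.9, 9.48 and 14.6 CPM at 38 °C, against 20.5, 19.1 and 16.3 CPM at 22 °C. Its log2 change was -0.62 (SE 0.411, adjusted p = 0.297) in *bzip17* buds and -0.64 (SE 0.412, adjusted p = 0.272) in WT buds, neither past the test. U3B (AT5G53902, chr5:21887966-21888667, plus strand) was at -0.68 (SE 0.553, adjusted p = 0.399) in *bzip17* buds and -0.53 (SE 0.553, adjusted p = 0.509) in WT buds. Both annotated genes are longer than the U3 RNA and overlap a gene on the opposite strand, AT5G54070 (*HSFA9*) at U3D and AT5G53905 at U3B, which were at most 0.0394 and 0.0001 FPKM in any library. *bzip17* 22 °C replicate 1, with 20.7% of its counts from rRNA loci, had the highest U3 level, 44.8 CPM for the pair, and replicate 3 of that group the lowest, 7.46 CPM. Without replicate 1 the change of U3B in *bzip17* buds was 0.50 and that of U3D 0.02.

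SNOR108 (AT5G41471, chr5:16598796-16598905, plus strand) is annotated as a box C/D snoRNA, as is SNOR105 (AT1G29071, chr1:10151668-10151774, minus strand), and the pair aligned with 85.3% identity over 109 bases. They are printed because the first was called in the opposite direction to the rest and the second aligned with it; capitals mark the boxes in SNOR105, and the C box letters were not found in the first 20 bases of SNOR108.
SNOR108: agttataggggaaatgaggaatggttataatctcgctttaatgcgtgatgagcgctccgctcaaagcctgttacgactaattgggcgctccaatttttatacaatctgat
SNOR105: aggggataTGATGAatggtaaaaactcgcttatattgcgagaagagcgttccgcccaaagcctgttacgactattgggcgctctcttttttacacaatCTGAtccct
SNOR108 had 0.629, 0.185 and 0.265 CPM in *bzip17* buds at 38 °C, against 3.23, 1.72 and 0.707 CPM in *bzip17* buds at 22 °C. In WT buds SNOR108 had 0.754, 0.498 and 0.244 CPM at 38 °C, against 2.86, 2.67 and 1.10 CPM at 22 °C. All 38 °C libraries lay below all 22 °C libraries in both genotypes. The log2 change was -2.36 (SE 0.709, adjusted p = 0.0283) in *bzip17* buds and -2.16 (SE 0.705, adjusted p = 0.0414) in WT buds. These calls were close to the threshold. Leaving out 1 library ended the call in 3 of 6 fits in *bzip17* buds (without 38 °C replicate 2 or 3 or 22 °C replicate 1), with adjusted p from 0.0153 to 0.114. In WT buds it ended the call in 5 of 6 fits, all but that without 22 °C replicate 3, with adjusted p from 0.035 to 0.128. SNOR105 was at -0.87 (SE 0.864, adjusted p = 0.498) in *bzip17* buds and -0.96 (SE 0.863, adjusted p = 0.438) in WT buds, with at most 0.780 CPM in any library.

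The 4 genes U3B, U3D, SNOR105 and SNOR108 were also the only members that hold the core of the upstream sequence element, CCCACATCG, in the window from 250 bases before to 50 bases after the annotated start or inside the annotated row. It lay 92 bases before the start at SNOR108, 96 before it at SNOR105, 39 bases into the annotated row at U3D and 262 bases into it at U3B. In these windows it was found at 3 of the 42 loci of the snoRNA genes (7.14%), each cluster counted once at its first gene, and at 0.183% of all 33330 windows and 0.147% of those of the other genes tested, on either strand. The core at U3B was found only in the annotated gene, a search for which no share over all genes was computed. These are the 4 genes described above for their negative changes, SNOR105 and SNOR108 after their values were seen, so the coincidence is a description. It held in WT buds only: of the 62 members without the core, 0 had a log2 change under 0 in WT buds and 6 in *bzip17* buds. In *bzip17* buds U3B and U3D also turned to 0.50 and 0.02 without 22 °C replicate 1. The windows of SNOR108 (chr5:16598546-16598845, plus strand) and SNOR105 (chr1:10151725-10152024, minus strand) are printed to show where the motif lies, with matches to the core and, in SNOR105, to a site II element in capitals.
SNOR108 window: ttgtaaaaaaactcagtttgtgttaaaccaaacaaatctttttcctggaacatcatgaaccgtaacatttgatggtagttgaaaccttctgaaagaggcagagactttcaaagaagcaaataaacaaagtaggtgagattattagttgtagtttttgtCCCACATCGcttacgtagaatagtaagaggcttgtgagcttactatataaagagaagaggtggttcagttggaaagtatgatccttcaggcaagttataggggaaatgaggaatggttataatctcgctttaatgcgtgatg
SNOR105 window: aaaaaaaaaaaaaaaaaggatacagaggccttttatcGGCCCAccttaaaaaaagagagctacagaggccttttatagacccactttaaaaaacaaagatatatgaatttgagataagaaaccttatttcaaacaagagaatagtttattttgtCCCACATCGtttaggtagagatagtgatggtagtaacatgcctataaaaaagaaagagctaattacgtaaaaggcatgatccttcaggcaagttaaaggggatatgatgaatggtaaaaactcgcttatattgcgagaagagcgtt
The 4 spliceosomal snRNA genes over the FPKM limit, U1.5, U2.3, U2.4 and U2.5, also hold this core in the window or the annotated row.

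Another promoter motif, the telo box AAACCCTA, known from ribosomal protein genes and other genes of ribosome synthesis, was present at 14 of the 42 snoRNA loci (33.3%) and in 8.17% of all windows, on either strand. Over the windows of the other genes tested, which passed the same expression limit, the share with a telo box was 8.72%. Site II elements (TGGGCC or TGGGCT) were present at 10 of the 42 loci (23.8%), in 25.4% of the windows of the other genes tested and in 19.9% of all windows. The upstream sequence element core starts with CCCA, which also ends a site II element read on the other strand, so these motifs can overlap. TGGGCT and a telo box read on the other strand can share an end base. The first genes of the 14 loci with a telo box had a median log2 change of 2.28 in *bzip17* buds and 2.56 in WT buds, and those of the 28 loci without one 1.42 in *bzip17* buds and 1.21 in WT buds. Of the 14 with a telo box 7 (50%) were called higher in each genotype, and of the 28 without one 9 (32.1%) in *bzip17* buds and 10 (35.7%) in WT buds. AT4G02555, AT2G35387 and AT1G03506 among the 14, and AT3G58193 and AT5G44286 among the 28, reached the FPKM limit in 0 libraries at 22 °C. The 28 also hold U3B, U3D, SNOR105 and SNOR108, with log2 changes under 0. This is a description, and a difference between loci with and without a telo box was not tested. The windows of AT4G39361 (chr4:18304641-18304940, plus strand), which leads the cluster with the highest level, and AT4G02555 (chr4:1122353-1122652, plus strand), the gene with the largest change, are shown with the telo box letters of either strand in capitals.
AT4G39361 window: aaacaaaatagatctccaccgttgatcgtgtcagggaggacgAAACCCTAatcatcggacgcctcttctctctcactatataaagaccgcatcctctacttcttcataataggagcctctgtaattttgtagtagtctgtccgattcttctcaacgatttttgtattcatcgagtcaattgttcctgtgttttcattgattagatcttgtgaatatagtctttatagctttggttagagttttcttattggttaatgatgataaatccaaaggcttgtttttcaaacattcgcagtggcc
AT4G02555 window: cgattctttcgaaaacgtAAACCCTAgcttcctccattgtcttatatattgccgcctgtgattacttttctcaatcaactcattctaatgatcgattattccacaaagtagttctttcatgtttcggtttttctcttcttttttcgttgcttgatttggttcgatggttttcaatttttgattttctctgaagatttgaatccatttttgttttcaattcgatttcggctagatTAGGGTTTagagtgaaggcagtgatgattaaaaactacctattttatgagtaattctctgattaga
For a clustered snoRNA the annotated start is the end of the processed RNA and not of its precursor, so a promoter may lie outside the window.

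In all, 39 of the 66 genes lay in 15 clusters (same strand, at most 500 bases apart) of 2 to 4 genes, and 27 stood alone. Of the clustered genes 23 of 39 were called higher in *bzip17* buds (median log2 change 2.21) and 27 of 39 in WT buds (median 2.89). Of the genes that stood alone 8 of 27 were called higher in *bzip17* buds (median 1.44) and 8 of 27 in WT buds (median 1.18). The clustered AT1G03506, AT1G03743, AT2G35387 and AT3G58193 reached the FPKM limit in 0 libraries at 22 °C, which favours a rise, as did AT4G02555 and AT5G44286, which stood alone. U3B, U3D, SNOR105 and SNOR108, with log2 changes under 0, all stood alone. A difference between clustered and single genes was not tested. Every gene was called in 5 of the 15 clusters in *bzip17* buds and in 6 in WT buds, and no gene in 4 clusters in *bzip17* buds and in 2 in WT buds. Within a cluster the genes differed by a median of 0.64 on the log2 scale in *bzip17* buds and 1.52 in WT buds, between the lowest and the highest. The widest spread was in the chromosome 4 cluster in *bzip17* buds, 3.80, and in the cluster headed by AT2G35387 in WT buds, 3.88. The cluster of AT1G12013 (SNOR111, annotated as box H/ACA) and AT1G12015 stood apart from the others, with log2 changes of -0.36 and 0.01 in *bzip17* buds and 0.05 and 0.83 in WT buds, none called.

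**Figure D4:**
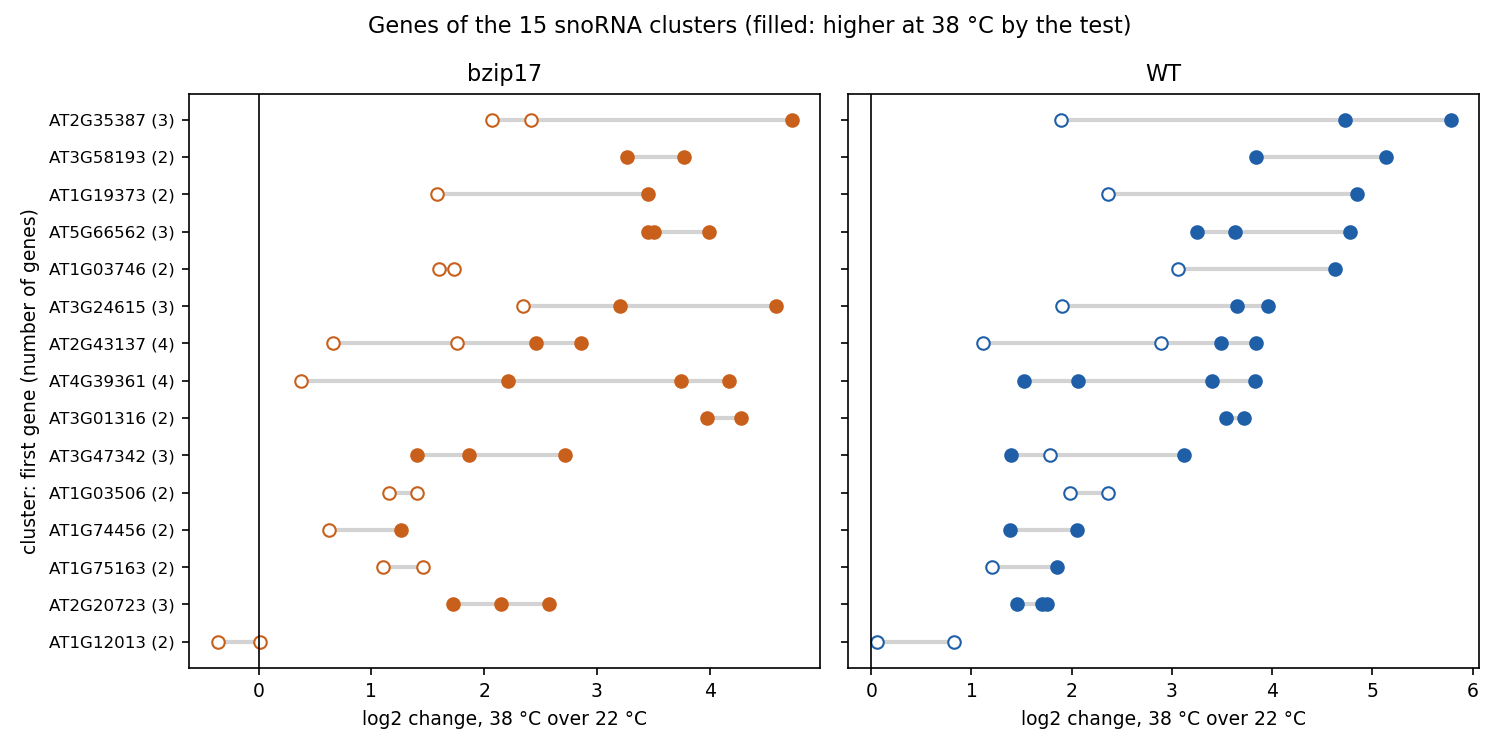
log2 change at 38 °C over 22 °C of the genes in the 15 snoRNA clusters, 1 row a cluster, named by its first gene with the number of genes, in *bzip17* buds (left) and WT buds (right). Filled circles mark genes called higher, which were 23 of 39 in *bzip17* buds and 27 of 39 in WT buds; the SNOR111 cluster at the bottom lies near 0.

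Of the snoRNA genes inside protein-coding genes, U60.1F and U60.2F lie in introns of *FIB1* (AT5G52470) and *FIB2* (AT4G25630), which encode fibrillarin, on the same strand, and are near-identical to each other. U60.1F was at -1.23 (SE 1.00, adjusted p = 0.4) in *bzip17* buds and 0.06 (SE 1.04, adjusted p = 0.976) in WT buds, and U60.2F at -0.22 (SE 0.988) in *bzip17* buds and 0.69 (SE 1.02) in WT buds. Neither host was called, with *FIB1* at -0.13 (SE 0.193) in *bzip17* buds and 0.10 (SE 0.193) in WT buds and *FIB2* at -0.70 in *bzip17* buds and -0.56 in WT buds. Of the 4 genes within AT2G43110, AT2G43139 and AT2G43141 were called higher in both genotypes, at 2.86 and 2.46 in *bzip17* buds and 3.84 and 3.49 in WT buds, while AT2G43110 itself was at -0.28 (SE 0.163) in *bzip17* buds and -0.07 (SE 0.163) in WT buds. RefSeq places AT2G43141 in an exon of AT2G43110, and AT2G43137, AT2G43138 and AT2G43139 in introns. Reads of a snoRNA and of unspliced RNA of its host cannot be told apart in these counts. At AT2G43141 the same holds for spliced host RNA. SNOR95 overlaps AT1G26230 (*Cpn60beta4*) on the same strand. By edgeR AT1G26230 was at 0.44 (SE 0.217, adjusted p = 0.155) in *bzip17* buds and 0.88 (SE 0.220, adjusted p = 0.013) in WT buds, short of 2-fold. In all, 9 members overlap another gene of the table. Of the 57 that do not, 29 were called higher in *bzip17* buds and 33 in WT buds.

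By box letters, 49 of the 66 genes carry the C box letters within the first 20 bases and the D box letters within the last 15, and 26 of these were called higher in *bzip17* buds and 28 in WT buds. Of the 17 genes without both, 5 were called higher in *bzip17* buds and 7 in WT buds, and 1, SNOR108, lower in each. The exact letters do not settle the class, since SNOR108 and SNOR37-2, annotated as box C/D, are among the 17. A difference between these sets was not tested. The annotation names a class for only 9 genes, 6 of them box C/D and 3 box H/ACA. None of the box H/ACA genes was called: SNOR77 was at 0.07 (SE 0.433) in *bzip17* buds and 0.49 (SE 0.439) in WT buds, and SNOR95 at 2.03 (SE 0.745, adjusted p = 0.0634) in *bzip17* buds and 1.15 (SE 0.743, adjusted p = 0.274) in WT buds.

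The genes for proteins that bind snoRNAs did not show the rise of the snoRNA genes in their read counts. Protein levels were not measured. Of 16 genes for the box C/D and H/ACA core proteins and their assembly factors, 0 were called in either direction in *bzip17* buds (5 at an unadjusted p under 0.05, 0 by DESeq2). In WT buds 0 were called (5 at an unadjusted p under 0.05, 1 higher by DESeq2). Their median log2 change was -0.17 in *bzip17* buds and -0.18 in WT buds. The NHP2 gene AT5G08180, for a box H/ACA protein, was at -0.90 (SE 0.199, adjusted p = 0.00629) in *bzip17* buds and -0.86 (SE 0.199, adjusted p = 0.00886) in WT buds, short of 2-fold. AT4G22380, for the SNU13-type protein that binds box C/D RNAs, was at 0.68 (SE 0.183, adjusted p = 0.0177) in *bzip17* buds and 0.75 (SE 0.184, adjusted p = 0.012) in WT buds.

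Other short nuclear RNAs differed among themselves. The 4 snRNA genes had a median log2 change of -0.89 in *bzip17* buds and -2.22 in WT buds, and 0 were called by edgeR (0 in *bzip17* buds and 2 in WT buds at an unadjusted p under 0.05; DESeq2 called 0 and 1 lower). WT 22 °C replicate 3 stood apart here too, with 63.1 CPM for the snRNAs, taken over the counts outside rRNA loci, against 3.36 to 14.7 elsewhere. Without it, a check chosen after seeing the data, the median in WT buds was 0.01, with U2.4 at 0.66, U2.3 at 0.30, U1.5 at -0.28 and U2.5 at -0.58, none called, so the WT value rested on that library. In *bzip17* buds the snRNAs were at 14.7, 4.67 and 3.36 CPM on that scale at 22 °C, highest in replicate 1. At 38 °C they were at 5.21, 3.92 and 5.22 CPM. The *bzip17* median without 22 °C replicate 1 is not given here. Of the 38 pre-tRNA genes over the limit, the 19 in the AT2G07 block of chromosome 2, which holds an insertion of mitochondrial DNA, were called higher in 14 cases in *bzip17* buds and 6 in WT buds. All 19 had a log2 change above 0, with medians of 4.10 in *bzip17* buds and 2.45 in WT buds, larger than those of the snoRNA genes. Some genes of this block passed the FPKM limit through the libraries at 38 °C, which favours a rise. AT2G07758, at the limit in 6 libraries, averaged 0.0001 FPKM in *bzip17* buds and 0.218 FPKM in WT buds at 22 °C. How many of the 19 did so was not counted. Of the 19 elsewhere 0 were called in either genotype, by edgeR or DESeq2 (6 in *bzip17* buds and 1 in WT buds at an unadjusted p under 0.05), with medians of 0.91 in *bzip17* buds and 0.31 in WT buds. Reads of the AT2G07 genes and of the mitochondrial genome itself may not be separable. Of the 107 other nuclear genes of at most 140 bases, pre-tRNA genes among them, 24 were called higher in *bzip17* buds (22.4%) and 17 in WT buds (15.9%), and 0 lower in either. The 19 genes of the AT2G07 block are part of the 107 and gave 14 and 6 of these calls. The log2 change was above 0 for 82 of the 107 in *bzip17* buds and 81 in WT buds, with medians of 1.72 in *bzip17* buds and 1.56 in WT buds, not far from those of the snoRNA genes. The medians of the 107 without the AT2G07 block, which had larger ones, were not computed. The FPKM limit bears on such sets. Of all tested genes without 1 FPKM in 3 of the 6 libraries at 22 °C, 25.5% were called higher in *bzip17* buds and 28.2% in WT buds. A wider set held 1245 other nuclear genes of at most 702 bases, without snRNA and pre-tRNA genes. Of these, 10.5% were called higher in *bzip17* buds and 11.5% in WT buds, with medians of -0.055 in *bzip17* buds and 0.066 in WT buds.

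**Figure D5:**
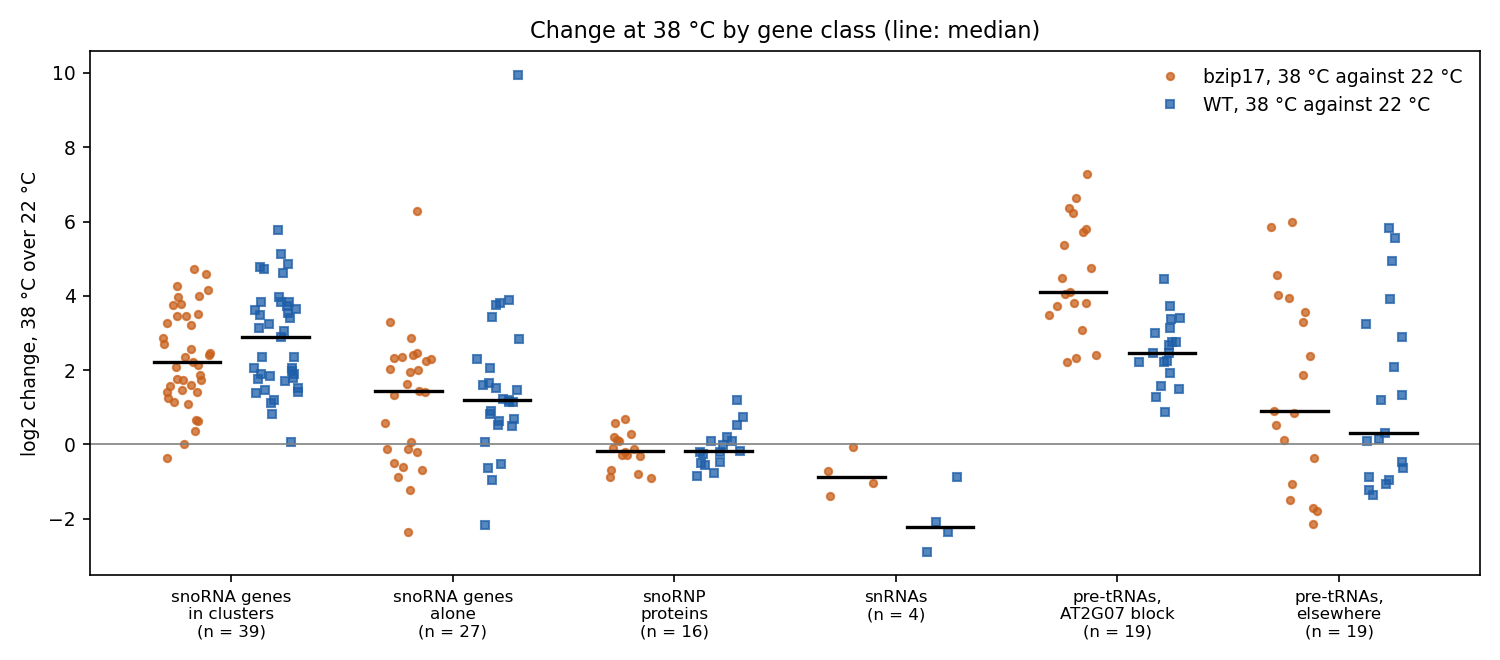
log2 change at 38 °C over 22 °C of single genes (points) with the class median (line), for clustered and single snoRNA genes and the genes of snoRNP proteins, snRNAs and pre-tRNAs, in *bzip17* buds (circles) and WT buds (squares). In *bzip17* buds the medians are 2.21 for clustered snoRNA genes, -0.17 for the genes of snoRNP proteins and -0.89 for snRNAs, and in WT buds they are 2.89, -0.18 and -2.22. The snRNA median in WT buds is 0.01 without WT 22 °C replicate 3.

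Between genotypes no snoRNA gene passed the test. At 38 °C 0 of the 66 were higher in *bzip17* than in WT buds (0.00483% of all genes) and 0 lower (0.00965%). At 22 °C 0 were higher (0% of all genes) and 0 lower (0.00965%). DESeq2 also called 0 at either temperature (with 27 of the 66 adjusted p-values missing at 22 °C), and 1 gene at each had an unadjusted p under 0.05 in the edgeR fit: AT4G39366 at 38 °C and AT4G02555 at 22 °C. The log2 difference, *bzip17* over WT, ran from -1.10 to 0.87 at 38 °C with a median of 0.04. At 22 °C, where the counts were lower, the median was 0.33, and the difference ran from -1.41 to 2.64, leaving aside AT4G02555, whose fitted 3.96 stands on 2, 3 and 0 counts in *bzip17* buds against 0 in all WT libraries and is no bound. The median at 22 °C rested on *bzip17* 22 °C replicate 2 and was -0.084 without it. The difference of the heat response between the genotypes was called for 0 of the 66 genes (0% of all genes; 0 at an unadjusted p under 0.05, 0 by DESeq2), with a median of -0.42 on the log2 scale. Over all genes tested, 2029 had an unadjusted p under 0.05 for the genotype difference at 22 °C, where DESeq2 called 19 higher and 49 lower, and 917 at 38 °C, where it called 5 higher and 32 lower. It was 895 for the difference of the heat response, where DESeq2 called 3 in each direction. A p over the threshold does not show that the genotypes act alike.

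The FPKM limit left out 5 of the 71 rows. The members nearest to it were AT1G03506, AT5G44286 and AT1G03743, whose third-highest library had 1.72, 2.24 and 2.54 FPKM. Outside it, AT2G17295 and AT2G35747 reached 0.584 and 0.287 FPKM in the third-highest library, and AT1G07702, AT3G14475 and AT4G05048 stood at the floor of 0.0001 FPKM in all libraries. In all, 22 members, the 4 chromosome 4 genes among them, have a near-identical copy in the genome (at least 90% identity over at least 80% of the length). Among the 44 members without one, 19 were called higher in *bzip17* buds and 23 in WT buds.

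The number of calls in WT buds fell when several libraries were left out together. Without the 4 libraries over 10% rRNA, which leaves WT at 22 °C with 1 library, assumed to vary like the other groups, and 2 libraries each in *bzip17* at 22 °C and WT at 38 °C, 23 of the 66 genes were called higher in *bzip17* buds and 8 in WT buds, with median log2 changes of 1.99 in *bzip17* buds and 2.29 in WT buds. Fewer samples and rRNA content cannot be told apart there. Leaving out any 1 library of the comparison gave 30 to 34 calls in WT buds. Under scaling to library totals, which moved the median of all genes to 0.08 in *bzip17* buds and 0.41 in WT buds, 17 were called higher in *bzip17* buds and 29 in WT buds. Of all calls across genes, 65.6% were then higher in *bzip17* buds and 83% in WT buds, against 48.5% in *bzip17* buds and 49.8% in WT buds with the scaling used above. For these refits and the replicate blocks, the share of all genes tested that was called is not given here. Their counts, the 8 in WT buds included, are thus not set against such a share.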

How the data were processed

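Total RNA from unopened buds of 12 pools (4 groups of 3) was sequenced on an Illumina NovaSeq. Upstream of the table, the authors used Cutadapt for trimming, HISAT2 for alignment (TAIR10), and StringTie with gffcompare for the transcripts. The authors deposited whole-number read counts per gene, not normalized. The FPKM values were deposited beside them, made by the authors with StringTie and ballgown, with empty genes at 0.0001. Tool versions, the counter, strandedness and any poly(A) selection or rRNA depletion are not given in the sources used here, so precursor and mature snoRNAs cannot be told apart, nor can overlapping genes on opposite strands.

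Counts were fitted with edgeR 4.0.16 (R 4.3.3, limma 3.58.1): quasi-likelihood F tests on 4 group means over all 12 libraries, TMM scaling, and Benjamini-Hochberg adjustment over the 20715 genes at 1 FPKM or more in at least 3 libraries. A gene was called at more than 2-fold with its adjusted p below 0.05 (for the difference of heat responses, the p alone). Standard errors were derived from F (log2 change over its root). The fit was tested on simulated data with 200 changed genes. DESeq2 1.42.0, other scalings and filters, leaving out libraries and a replicate block were alternatives. Near-identical copies were found with BLAST+ 2.17.0; tables and figures were made with Python 3.11.15, pandas 2.3.3 and matplotlib 3.10.9. Sequences, promoter windows and annotation are from RefSeq (TAIR10.1, the same coordinates as TAIR10); all 71 snoRNA genes matched in start, end and biotype.

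Genes named were, for each comparison, the 6 called members with the smallest adjusted p and the 4 with the largest change, the 8 with the highest mean FPKM, U3, snoRNP proteins, *bZIP17* and those next to the FPKM limit. SNOR105, SNOR108, the genes in host genes and those called in 1 genotype only were added after their values were seen. The members and lists were chosen with earlier results of these data known. Deviations from group means of libraries with the same replicate number correlated at 0.148, 0.185 and 0.219 between *bzip17* buds at 38 °C and 22 °C, so those numbers were taken as pairs; in the other comparisons at least 1 number was at or under 0.1.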

Additional observations from a re-analysis of the deposited data

How the results depend on the processing

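Without the 4 libraries over 10% rRNA, 8 snoRNA genes were called higher in WT buds, 0 lower in either genotype, and in *bzip17* buds U3B turned to 0.53 and U3D to 0.05; in WT buds AT5G66564 (adjusted p = 0.0567), AT4G02555 (0.0514) and AT3G58193 (0.107) lost their calls. Scaling to library totals gave 17 genes called higher in *bzip17* buds and 0 lower in either genotype. Without a filter 0 were lower in WT buds, and with only the compared groups in the fit 0 were lower in *bzip17* buds. At more than 2-fold with an unadjusted p under 0.05, 1 gene was higher in *bzip17* than WT buds at 22 °C. Restricted to members with no near-identical copy, an alternative chosen after seeing the data, 19 were higher in *bzip17* buds and 23 in WT buds.

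Leaving out 1 library gave 23 to 33 genes higher and 0 to 2 lower in *bzip17* buds, and 30 to 34 higher and 0 to 1 lower in WT buds. In *bzip17* buds U3B then ran from -1.14 to 0.50 and U3D from -1.03 to 0.02, with U3D called lower (adjusted p = 0.0157) without *bzip17* 22 °C replicate 3. The median genotype difference at 22 °C ran from -0.084 to 0.439.

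DESeq2 called 36 higher in *bzip17* buds and 39 in WT buds. Of all 20715 genes tested it called 1416 higher in *bzip17* buds and 1518 in WT buds. With the replicate block over all 12 libraries 30 were higher in *bzip17* buds and 37 in WT buds; with a replicate block among the 6 *bzip17* libraries, chosen after seeing the data, 22 were higher and 1 lower. The calls over all genes tested are not given here for these blocks, so their counts are not set against such a share. Neither block changed the call of a gene that was refitted singly (the named increases, SNOR105, SNOR108, U3B and U3D). Among the 48 members at the FPKM limit at 22 °C alone, also chosen after seeing the data, 23 were higher in *bzip17* buds and 24 in WT buds. The cause of these changes was not tested.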
